A study of Mus musculus with 2 samples.

Results

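Alleles of 2 genes were engineered in these mice, and the transcripts described here are those encoded near them: on mouse chromosome 5 around Rbpj and on chromosome 9 around Tbx18. They were chosen by position alone, as the non-control probes of the array whose deposited coordinates on the mouse build mm9 lie on chromosome 5 from 44 to 64 Mb or on chromosome 9 from 77.6 to 97.6 Mb. The Rbpj window held 101 probes for 76 gene names and the Tbx18 window 222 probes for 163, which gives 323 of the 39429 probes on the array. Of these, 228 (70 and 158) gave a signal above background on both arrays and 95 did not, so every count below is over the 228 that passed.

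RNA was measured in ureters dissected from NMRI mouse embryos at E14.5. One genotype was Tbx18(cre/+);Rbpj(fl/fl), called Rbpj-cKO, and the other was a control labelled Rbpj(fl/?), whose second Rbpj allele is given only as a question mark and for which no Cre is listed. There were 2 arrays, each a 2-colour hybridisation of Rbpj-cKO against control RNA from 150 ng of total RNA, with Rbpj-cKO in red and male embryos on replicate 1 and Rbpj-cKO in green and female embryos on replicate 2. The number of embryos behind each channel is not in the labels, so tests over the 2 arrays measure only the spread between them, and dye and sex cannot be told apart.

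Rbpj encodes the DNA-binding protein through which the intracellular part of activated Notch receptors switches on its target genes, and without Notch it can hold such genes silent. Tbx18 encodes a T-box transcription factor of the mesenchyme that surrounds the ureteric epithelium, and an allele with Cre at this locus deletes floxed genes in that mesenchyme and the smooth muscle that comes from it, not in the epithelium. DNA on either side of an engineered allele is carried along with it through breeding, and a cassette in a locus can change transcription next to it. Every Rbpj-cKO embryo carried the Cre allele and 2 floxed Rbpj alleles, so effects of the alleles' surroundings, of Cre and of losing Rbpj cannot be told apart in these groups.

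Stretches from the middle of the probes the results turn on (bases 16 to 45 of 60, counted from the probe's 5′ end) are shown to identify what was hybridised, since several of these genes have more than 1 probe and D030062O11Rik is known here only as a cDNA clone. An mm9 annotation was not used here, so exon or UTR positions are not given. The brighter Rbpj probe is at chr5:54048503-54048562 (plus strand) and the dimmer at chr5:54044777-54044836 (plus strand), the Pi4k2b probe is at chr5:53159457-53159516 (plus strand), the Tbx18 probe at chr9:87599514-87599573 (minus strand), the D030062O11Rik probe at chr9:87626691-87626750 (plus strand) and the 9430037G07Rik probe at chr9:88490190-88490249 (minus strand).
Rbpj, brighter probe: atctgctcaattccatatttcatccatgaa
Rbpj, dimmer probe: ggaattacacaaatgccagcacaaattcta
Pi4k2b: gtaaagcaactataccttcagtttaaaagc
Tbx18: aaatcttagtatatttctgaggtatctata
D030062O11Rik: cttttatttaggactaattattttaaaacg
9430037G07Rik: aaatacaggtacaggatgctgaagaaaacc

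The arrays as a whole differed more from each other than the genotypes did. The log2 ratios of Rbpj-cKO over control correlated negatively between the arrays over the 26980 probes that passed (Pearson r = -0.365, a description across probes), although the dyes are stated in the labels and the ratios were turned accordingly. Urothelial markers were well above background in all 4 channels for 10 of 10 genes and mesenchymal and smooth muscle markers for 9 of 10. The summed signal of 10 skeletal muscle markers was 19820 in Rbpj-cKO against 12850 in control on replicate 1 and 10570 against 22430 on replicate 2, and that of 9 erythroid markers was 119400 against 83270 and 50660 against 94790. The 8 neural crest and neuronal markers summed to 34510 against 8784 and 8849 against 4699, and 7 of the 8 were higher in Rbpj-cKO on both arrays. In the female Rbpj-cKO channel the Y-linked transcripts Ddx3y and Eif2s3y stood at 8.04% and 8.94% of their signal in the male one, with Ddx3y at 123 against 2.12 in the female control. That channel thus goes against its label in part, and ratios are given below for each array on its own.

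Near Rbpj, 2 genes were at least 1.5-fold lower in the mutant on both arrays: Rbpj itself and Pi4k2b, which encodes a phosphatidylinositol 4-kinase acting on endosomal and plasma membranes. The brighter Rbpj probe read 831 in Rbpj-cKO and 1851 in control on replicate 1, and 773 against 1199 on replicate 2 (processed signal, scanner units). Both mutant channels lay below both control channels, and 831 and 773 remained in the mutant. The epithelium is not a target of this Cre, and its part in the remaining signal was not tested. The log2 ratio of this probe was -1.13 and -0.63, a mean of -0.88 ± 0.35 (SD, n = 2 arrays) or 1.84-fold lower. In bulk RNA of this kind, fewer cells of a type and less RNA per cell cannot be told apart. The dimmer Rbpj probe read 53.5 against 85.0 and 45.6 against 63.4, log2 ratios of -0.48 and -0.37. The sources used here do not name the floxed exons, so whether either probe lies in the deleted part was not determined.

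Pi4k2b read 382 in Rbpj-cKO and 838 in control on replicate 1, and 362 against 724.5 on replicate 2. The 4 channels fell into a low mutant pair and a high control pair with no overlap, and the arrays differed less from each other than for Rbpj. The log2 ratio was -1.07 and -0.98, a mean of -1.02 ± 0.06 or 2.03-fold lower. Pi4k2b lies 0.889 Mb from Rbpj, with 5 protein-coding genes between them, and by limma's p-value it stood at rank 9 of all probes against rank 33 for Rbpj itself. Neither passed limma after Benjamini-Hochberg adjustment over all 26980 probes (adjusted p = 0.235 for Pi4k2b and 0.713 for Rbpj), and no probe of the array did (smallest adjusted p = 0.195).

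**Figure D1:**
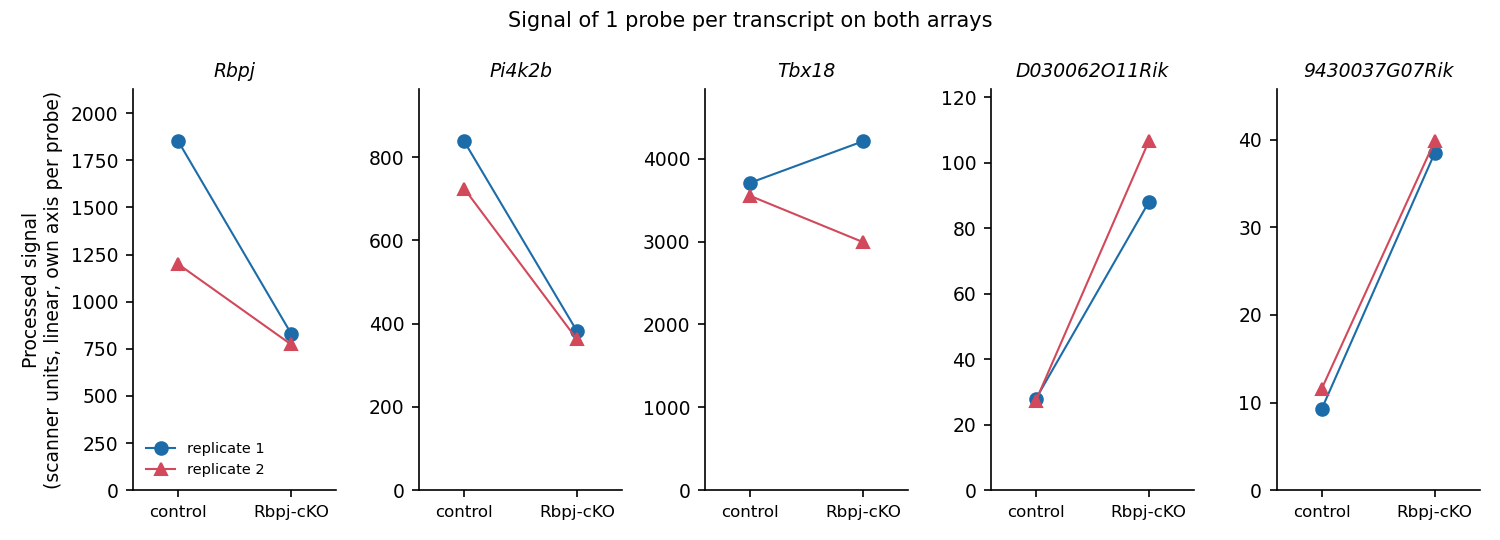
Processed signal in control and Rbpj-cKO ureters for 1 probe each of Rbpj, Pi4k2b, Tbx18, D030062O11Rik and 9430037G07Rik; each panel has its own linear axis in scanner units from 0, and a line joins the 2 channels of an array (circles, replicate 1; triangles, replicate 2). Both lines fall for Rbpj and Pi4k2b and rise for D030062O11Rik and 9430037G07Rik. For Tbx18 the line of replicate 1 rises, from 3710 in control to 4211 in Rbpj-cKO. That of replicate 2 falls, from 3553 to 2995.

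The genes between Pi4k2b and Rbpj, and those just beyond Rbpj, had ratios near 0. Zcchc4, which encodes an rRNA methyltransferase and neighbours Pi4k2b on the side towards Rbpj, had 3 probes with mean log2 ratios of 0.02, -0.09 and -0.05. Sepsecs, on the other side of Pi4k2b and an enzyme of selenocysteine tRNA synthesis, had ratios of 0.05 and 0.03. Anapc4, a subunit of the anaphase-promoting complex, read 13180 against 12950 and 11400 against 11900, so its 2 ratios (0.03 and -0.09) differed in sign. The remaining named neighbours Sel1l3, Smim20, Tbc1d19 and Stim2, the last an endoplasmic reticulum calcium sensor, had opposite signs on the arrays, with means between -0.05 and 0.01. Over all 10 other probes within 1 Mb of Rbpj (8 gene names), mean ratios ran from -0.09 to 0.24.

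Near Tbx18, 2 non-coding or uncharacterised transcripts were at least 1.5-fold higher in the mutant on both arrays, and Tbx18 was not among them. D030062O11Rik and 9430037G07Rik were singled out after their values were seen. D030062O11Rik, whose probe lies 0.0272 Mb from the Tbx18 probe and on the opposite strand, read 88.0 in Rbpj-cKO and 27.9 in control on replicate 1, and 107 against 27.4 on replicate 2. All 4 spots of the probe were well above background in every channel, and the mutant channels were both above the control channels. Its log2 ratio was 1.14 and 1.39, a mean of 1.26 ± 0.18 or 2.40-fold higher, and at rank 3 by limma's p-value it was the foremost of the 228 probes (limma adjusted p = 0.195).

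9430037G07Rik, a long non-coding RNA gene next to Zfp949, lies 0.891 Mb from the Tbx18 probe. It read 38.5 in Rbpj-cKO and 9.30 in control on replicate 1, and 39.8 against 11.6 on replicate 2. The control was well above background on 0 of 4 spots on replicate 1 and on 2 of 4 on replicate 2, so control was measured on 1 of the 2 arrays only, and the fold on replicate 1 rests on a control signal that could not be told from background. The log2 ratio was 0.90 and 0.91, a mean of 0.90 ± 0.0067 or 1.87-fold higher (rank 14, limma adjusted p = 0.325). Both transcripts are dim, and the offset of 50 added before taking logs draws their ratios towards 0: on the scanner software's processed signals, which have none, they were 3.51-fold and 3.78-fold higher. On those signals the log2 ratios of 9430037G07Rik were 2.06 and 1.78, so its arrays lay farther apart than the SD of 0.0067 shows. The control limit on replicate 1 holds there too. In 2 other settings both transcripts passed the test: with those processed signals (limma adjusted p = 0.0367 and 0.0315, of 3 probes on the array) and with limma's intensity trend and robust moderation (0.0158 each), where 10 probes of the array passed (0.0371%). They did not pass with median centring (0.216 and 1) or the deposited table (0.154 and 0.115). Nor did they with outlier spots kept (limma adjusted p = 0.149 and 0.265), with 1 brightest probe per gene (0.254 and 0.394) or with no filter on dim probes. With all 4 spots required above background in both channels, D030062O11Rik did not pass (0.126) and 9430037G07Rik was left out.

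Tbx18 read 4211 in Rbpj-cKO and 3710 in control on replicate 1, and 2995 against 3553 on replicate 2. The mutant channels enclosed the control ones, with log2 ratios of 0.17 and -0.24 and a mean of -0.03 ± 0.29. The protein-coding neighbours listed on either side of it had means near 0 as well. The 3 probes of Cep162, a centrosomal protein, had means of -0.11, 0.12 and -0.14. Nt5e, the ectonucleotidase CD73, had ratios of -0.21 and -0.11. Mrap2, 0.52 Mb away, had ratios of 0.08 and 0.05 with 1 probe past the filter and -0.21 and 0.50 with another. For the latter, control was well above background on 0 of 4 spots on replicate 2. Syncrip, an RNA-binding protein, had 3 probes between -0.03 and 0.11. The 3 probes of Me1, the cytosolic malic enzyme, lie 1.12 Mb away and all had positive ratios on both arrays, with means of 0.17, 0.10 and 0.23.

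Zfp949, a zinc finger gene beside 9430037G07Rik, went the other way from it. Its first probe read 499 in Rbpj-cKO and 669 in control on replicate 1, and 379 against 599 on replicate 2, log2 ratios of -0.39 and -0.65. The second read 836 against 1022 and 697 against 757, with ratios of -0.27 and -0.13. The 2 probes had the same sign on both arrays but means of -0.52 and -0.20 (limma adjusted p = 1 for both). Snhg5, a host gene of small nucleolar RNAs, read 629 against 615 and 781 against 470, so that a difference was seen on replicate 2 alone. Over the 23 probes within 1 Mb of Tbx18 other than its own and the 2 higher transcripts, means ran from -0.52 to 0.37.

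**Figure D2:**
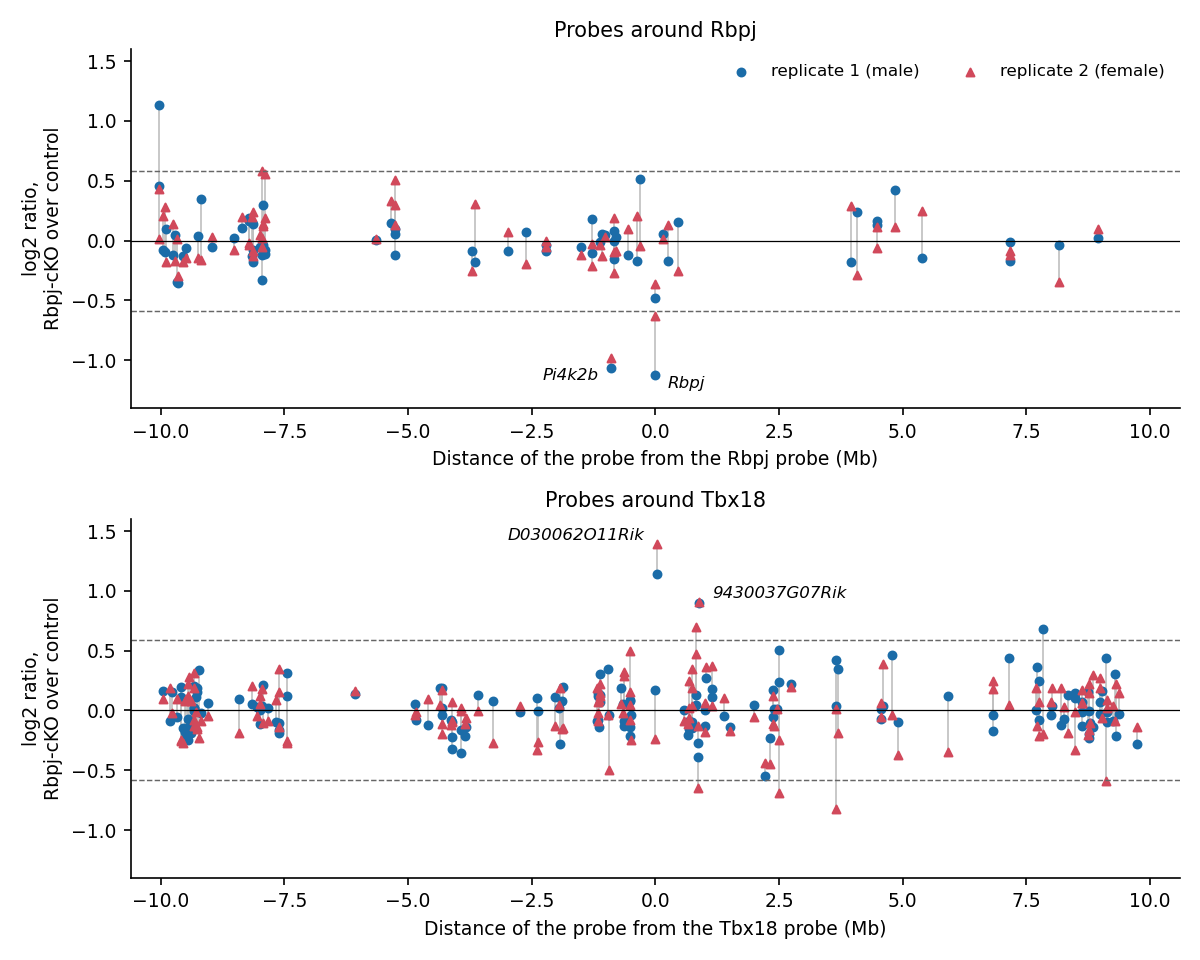
Log2 ratio of Rbpj-cKO over control against distance from the Rbpj probe (upper panel, 70 probes) and the Tbx18 probe (lower panel, 158 probes), in Mb; a grey line joins the 2 arrays' values of a probe (circles, replicate 1; triangles, replicate 2) and dashed lines mark 1.5-fold. The 4 named transcripts, all within 1 Mb, are those with both values past a dashed line on the same side.

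Counted over the windows, the shares of probes that were at least 1.5-fold higher, or at least 1.5-fold lower, on each of the 2 arrays stood above the array's. In the Rbpj window it was 2 of 70 (2.86%, Wilson 95% interval 0.787% to 9.83%), both lower. In the Tbx18 window it was 2 of 158 (1.27%, 0.348% to 4.50%), both higher. Over the array it was 43 of 26980 (0.159%), with 15 lower (0.0556%) and 28 higher (0.104%). The direction in each window was known only once the probes were seen, so the like background is the share in either direction. On replicate 2 alone the share past 1.5-fold was 4.43% in the Tbx18 window and 2.86% in the Rbpj window. On replicate 1 alone it was 1.90% and 4.29%. No single-array share over all probes is given here. The single-array shares thus have no background to be set against, and those requiring both arrays are not a like measure. The 4 probes in the windows were 9.30% of the array's 43 in either direction, while the windows held 0.845% of the probes. The intervals cover the counting of probes only, and 1 of the 4 is the targeted gene. With the Rbpj probes left out, an alternative chosen after seeing the data, the share in the Rbpj window was 1 of 68 (1.47%).

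In 10 other windows of 20 Mb laid end to end on the same chromosomes (6 on chromosome 5 and 4 on chromosome 9, with 133 to 391 probes each), 3 of 2479 probes met the same rule (0.121%). Of the 10 windows, 8 held none, and the highest share was 0.766%. The spread of the mean log2 ratios (SD over probes) was 0.228 in the Rbpj window and 0.176 in the Tbx18 window, against 0.106 to 0.185 in the other windows and 0.125 over the array. The Rbpj window thus lay above that range and the Tbx18 window inside it. Both SDs include the probes already counted in the shares, among them those of the targeted gene Rbpj. They are therefore not separate from the shares, and no SD without these probes is given here. Medians lay near 0: they were -0.04 and 0.0013 on the 2 arrays in the Rbpj window, and 0.0041 and 0.02 in the Tbx18 window.

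**Figure D3:**
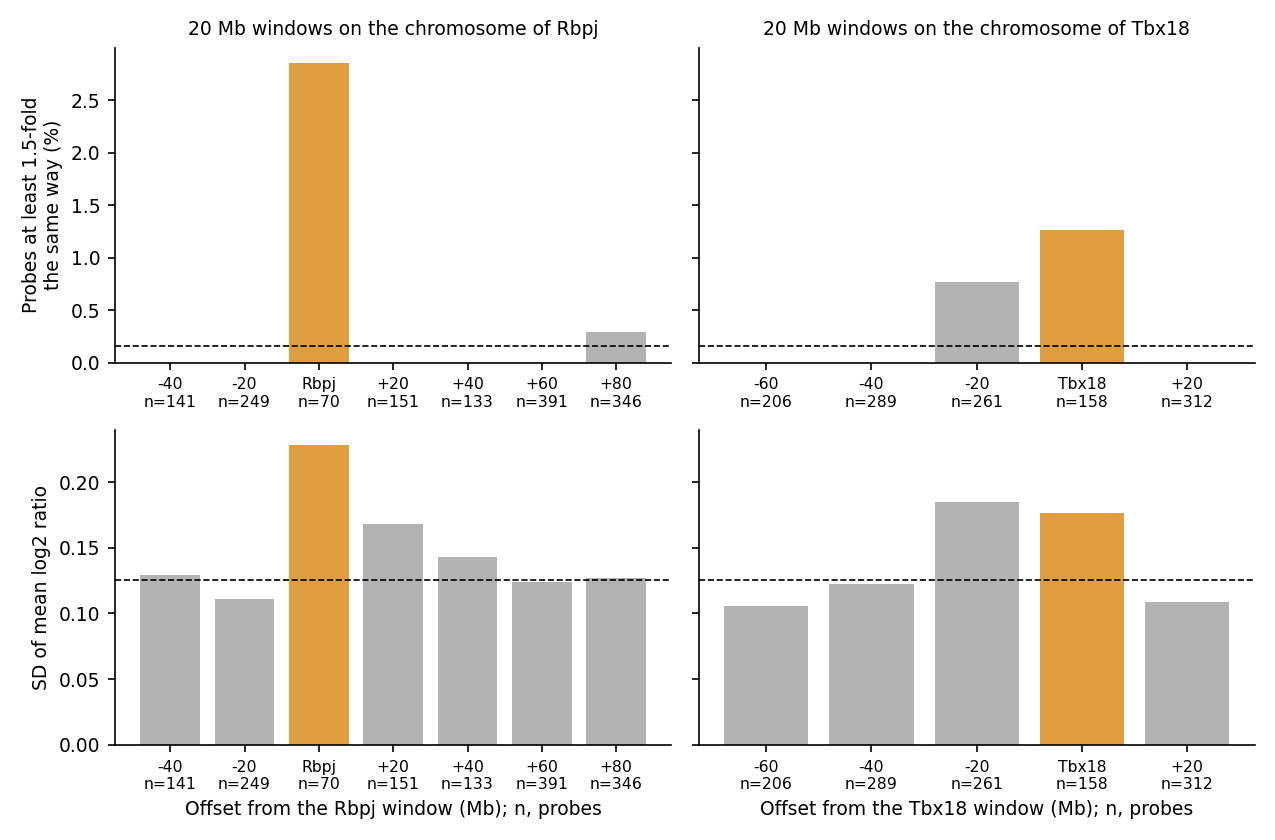
Share of probes at least 1.5-fold to the same side on each array (upper row, percent) and SD of the mean log2 ratio (lower row) in windows of 20 Mb on the chromosomes of Rbpj (left) and Tbx18 (right); the windows around the 2 loci are in orange, the others in grey, and the dashed line is the value over all probes. The orange bars are the highest of their panels at 2.86% and 1.27% for the share, but the Tbx18 window's SD of 0.176 is below the 0.185 of the window before it.

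All 4 of these probes lay within 1 Mb of an engineered gene, a distance chosen with their positions known (up to 0.891 Mb), so the split at 1 Mb is a description. Within that distance they were 4 of 39 probes (10.3%, Wilson 95% interval 4.06% to 23.6%), and beyond it 0 of 189 (upper limit 1.99%). With the probes of the targeted gene Rbpj left out they were 3 of 37 (8.11%). The SD of the mean log2 ratios was 0.373 within 1 Mb, where it includes these 4 probes, and 0.131 beyond. A stretch of 2 Mb elsewhere on chromosome 9 had a larger SD than either locus (0.435, of 100 other stretches with at least 10 probes). In 130 other stretches of 2 Mb on the 2 chromosomes, 127 held no gene at least 1.5-fold to the same side on both, 3 held 1 and 0 held 2 or more. The stretch around Tbx18 held 2 and that around Rbpj 2, or 1 without Rbpj itself. Over the whole array, 3 pairs of such genes lay within 1 Mb of each other: Pi4k2b with Rbpj (0.889 Mb), D030062O11Rik with 9430037G07Rik (0.864 Mb), and Hand2os1 with a transcript-cluster probe on another chromosome (0.00656 Mb). The labels give NMRI for all samples and no strain for the DNA around either allele, whose part in these values was not tested.

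After loess, no probe of either window was at least 1.5-fold in opposite ways on the 2 arrays, against 163 on the array (0.604%) and 11 in the other windows (0.444%). With upper limits of 5.2% for the Rbpj window and 2.37% for the Tbx18 window, neither count of 0 could be told from the array's share. With median centring 1.90% of the Tbx18 window stood in opposite ways, against 445 of 26980 probes on the array, and with the processed signals 0.633%. The sign was the same on both arrays for 31 of 70 probes (44.3%) and 57 of 158 (36.1%), against 31.0% over the array and 27.6% to 38.3% in the other windows. With each array centred on its median in place of loess, these shares were 32.9% and 24.7%, against 21.7% over the array. Past an unadjusted limma p of 0.05 stood 5 of 70 and 6 of 158 probes, against 1.73% of the array.

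**Figure D4:**
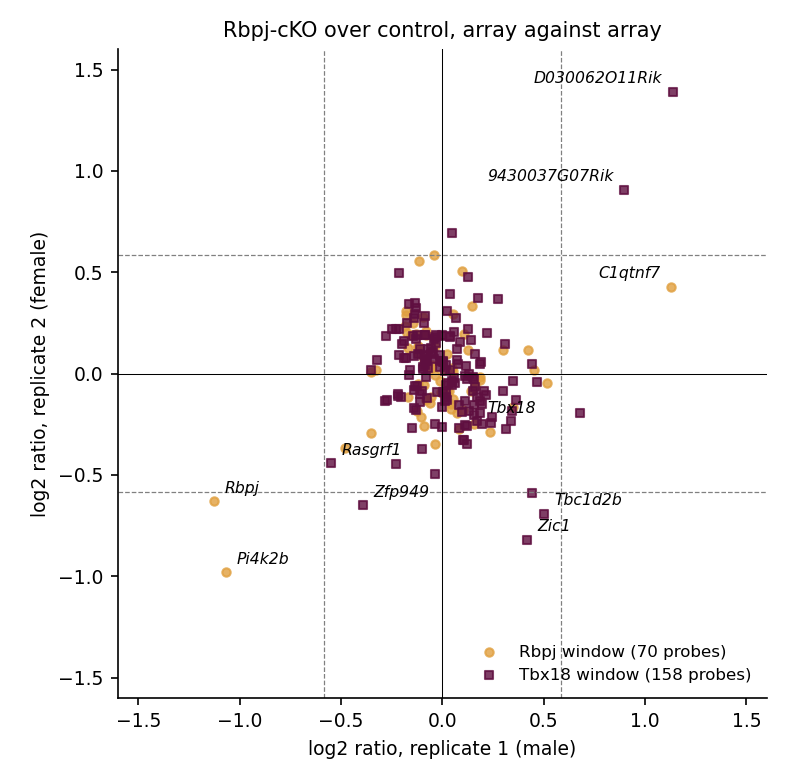
Log2 ratio of Rbpj-cKO over control on replicate 2 (vertical) against replicate 1 (horizontal) for the 228 probes of the 2 windows; circles are the Rbpj window, squares the Tbx18 window, and dashed lines mark 1.5-fold. The upper right corner holds D030062O11Rik and 9430037G07Rik, the lower left corner Rbpj and Pi4k2b, and the other 2 corners are empty.

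Farther out in the Rbpj window, single genes stood out on 1 array. C1qtnf7, a secreted C1q and TNF related protein at the edge of the window, read 254 in Rbpj-cKO and 104.5 in control on replicate 1 but 147 against 102 on replicate 2, log2 ratios of 1.13 and 0.43. Its second probe had 0.45 and 0.02. C1qtnf7 was the first gene inside the window, and Cpeb2, the last outside it, had 0.05 and 0.0067. At the other edge, Arap2 just inside had 0.02 and 0.09, and a probe named by a transcript accession just outside had -0.10 and -0.11.

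Prom1, the membrane protein CD133, had ratios of -0.35 and -0.29 with its dimmer probe and -0.35 and 0.0090 with its brighter one, so the probes disagreed on replicate 2. Slit2, a secreted guidance cue that in the urinary system restricts where the ureteric bud forms, read 2210 against 2001 and 2155 against 1677, log2 ratios of 0.15 and 0.33. Kcnip4, a potassium channel-interacting protein, had 0.10 and 0.51, and Ncapg, a condensin subunit, had -0.04 and 0.58. For each of the 3 the value came mainly from the female array, and none passed limma (adjusted p = 1 for each).

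Farther out in the Tbx18 window, Rasgrf1, an imprinted gene for a Ras exchange factor best known in neurons, was lower with both probes. The first read 165 in Rbpj-cKO and 258 in control on replicate 1, and 119 against 167 on replicate 2, log2 ratios of -0.55 and -0.44 at 2.21 Mb from Tbx18. The second probe was not well above background in Rbpj-cKO on either array (10.02 and 2.79, against 16.03 and 11.9 in control), which gives at least 1.26-fold lower, and only this dim probe passed 1.5-fold on both arrays on the processed signals; such a bound sets the bright group's mean against the dim group's, taken at no less than the dimmest probe measured in that channel. Neither probe passed limma (adjusted p = 1 for both). The neural marker list, summed above, was higher in the mutant, and its part in the Rasgrf1 values was not tested.

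Bcl2a1d, a Bcl2-family survival gene of blood cells with near-identical copies in the same cluster, read 126 against 103 and 111 against 76.3, log2 ratios of 0.28 and 0.37; its copies may share the probe. Snap91, an endocytic adaptor of synapses, had -0.04 and -0.50, and Plod2, a lysyl hydroxylase of collagen, had -0.10 and -0.37. Among genes with opposite ratios on the arrays, Zic1, a zinc finger factor of dorsal neural tube and somite, read 82.1 against 56.9 and 40.8 against 86.6 (0.42 and -0.82), and Tbc1d2b, a Rab GTPase-activating protein, read 498 against 349 and 267 against 437.5 (0.50 and -0.69). The same order, higher in the male mutant and lower in the female one, was that of the summed skeletal muscle and erythroid markers and of Tbx18. It is also the order of red above green on both arrays. The part of the markers or the dye in these values was not tested. The second Zic1 probe had 0.04 and 0.02, so the probes of that gene disagreed. The edges of the window were quiet inside: Gclc had 0.16 and 0.10 and Clstn2 -0.28 and -0.14, while Klhl31 just outside had 0.39 and -0.65 and Nmnat3 -0.21 and 0.13.

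Genes of the windows grouped by role showed 1 member past 1.5-fold on both arrays, Pi4k2b. Over all 20495 genes, by the brightest probe of each, the share with both ratios above 0 was 16.1% and with both below 0 14.8%, which is the background for the counts that follow. Of 9 measured genes of cell division and DNA replication, 5 had opposite signs on the arrays, 3 were lower and 1 was higher, with a median of -0.02 against -0.0033 over all genes; Ttk, the spindle checkpoint kinase, had -0.22 and -0.11. Of 10 patterning and guidance genes, 7 had opposite signs. Of 13 genes of lipid and sugar metabolism, 2 were higher, 4 lower and 7 of opposite sign, with a median of 0.05. Of 7 matrix and collagen-processing genes 5 had opposite signs, among them Adamts7, a metalloprotease, at 0.24 and -0.25. Of 5 immune and blood genes 2 were higher, of 5 muscle-associated genes 2 were higher, and of 7 neural genes 4 were lower on both and 2 higher. None of these genes passed limma after adjustment.

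Probes of one gene gave a measure of how far a single probe can be trusted. In the Rbpj window 13 genes had several probes past the filter, and the means of a gene's probes lay apart by a median of 0.15 and at most 0.54 on the log2 scale. In the Tbx18 window it was 31 genes, with a median of 0.08 and at most 0.32. Pi4k2b (-1.02), D030062O11Rik (1.26) and 9430037G07Rik (0.90) had 1 probe each, so no such gap was measured for them. Their means exceeded all of these gaps, but the 1.5-fold rule that picked them already required this. Among all 228 probes, 57 of 70 (81.4%) and 137 of 158 (86.7%) had a mean within 0.2 of 0, against 92.6% of the array.

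The upstream sequences of Rbpj and Pi4k2b are shown because both genes were lower in the mutant on both arrays and Rbpj protein binds the motif TGGGAA. Its reverse complement, searched as well, is TTCCCA. They are the 250 bases before the RefSeq start site in GRCm38.p6, a later build than that of the array; Rbpj is chr5:53590096-53590345 (plus strand), the first of its 2 listed starts, and Pi4k2b is chr5:52741324-52741573 (plus strand). Capitals mark the motif.
Rbpj: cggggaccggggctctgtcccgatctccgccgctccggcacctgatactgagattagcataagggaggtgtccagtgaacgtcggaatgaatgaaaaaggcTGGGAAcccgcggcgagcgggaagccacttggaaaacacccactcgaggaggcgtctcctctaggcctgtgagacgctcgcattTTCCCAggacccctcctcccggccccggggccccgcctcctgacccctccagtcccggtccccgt
Pi4k2b: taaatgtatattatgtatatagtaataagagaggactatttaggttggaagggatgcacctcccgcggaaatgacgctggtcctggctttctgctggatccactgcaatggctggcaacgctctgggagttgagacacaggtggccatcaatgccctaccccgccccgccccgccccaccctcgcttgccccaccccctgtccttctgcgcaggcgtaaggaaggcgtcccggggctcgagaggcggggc
The Rbpj stretch holds the motif 2 times and the Pi4k2b stretch 0 times, and that of 9430037G07Rik holds it 0 times. Among window genes past the filter with an upstream sequence, 11 of 29 around Rbpj (37.9%) and 20 of 76 around Tbx18 (26.3%) held it at least once, against 6510 of 27025 genes (24.1%) of the whole table. A match of these letters is a description of this stretch and not a binding site.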

How the data were processed

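The mean spot intensity and local background median intensity of both colours are raw scanner output as deposited, per the file headers. A processed intensity, also deposited, is the scanner software's background-subtracted, dye-normalized signal, and the log10 ratio deposited with it is red over green, per the file headers. Other columns deposited are 0 or 1 flags for background, saturation and outliers. The deposited series table is a score whose scale the sources do not state; its values lie outside -1 to 1, as a signed fold would, and it was used as an alternative. The submitters' processing notes name Agilent Feature Extraction 10.7.3.1. Coordinates are on mm9, per the file headers.

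Spots were corrected with normexp (offset 50) and loess in limma 3.58.1 (R 4.3.3), outlier spots were left out (3.57% and 3.90%), and the 4 spots of a probe were averaged. A probe was kept with at least 2 spots well above background in 1 channel or both on each array, and 26980 were. Replicate 2 was turned so that all ratios are Rbpj-cKO over control. limma tested the 2 arrays against 0 (1 residual degree of freedom before moderation), two-sided, with Benjamini-Hochberg adjustment over all kept probes, and was tested on simulated data. Distances run between probe midpoints and the Rbpj or Tbx18 probe. Both arrays come from 1 slide, and their number limits the precision. Names came from RefSeq by accession for 28328 probes, by symbol for 3400 and from the file for 7701.

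The members and gene lists were chosen with earlier results of these data known. Genes named are the engineered ones, those at least 1.5-fold the same way, the 8 with the largest mean of like sign and the 5 nearest on each side in each window, those at least 1.5-fold in opposite ways (none) and members of the role lists; clone and predicted names were described only where the text says so. Outside these rules, the text also names Sepsecs as a neighbour of Pi4k2b, the genes at the window edges, marker genes and Hand2os1. Tbc1d2b falls under none of the rules either. Alternatives were the processed signals, median centring, the deposited table, other filters, other window sizes, 2-fold and each array alone.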

Additional observations from a re-analysis of the deposited data

Results flagged for a closer look

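Gm10634, a predicted gene on chromosome 9 whose probe lies 1.13 Mb from Tbx18, was left out by the filter on dim probes. It read 12.01 in Rbpj-cKO against 6.24 in control on replicate 1, and 10.17 against 4.60 on replicate 2. The mutant was well above background on 2 of 4 spots and on 1 of 4, and the control on 0 of 4 on both arrays. By the rule of at least 2 spots, the mutant was thus measured on replicate 1 only and the control on neither array.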

How the results depend on the processing

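The 4 probes counted as at least 1.5-fold to the same side kept their direction under the processed signals, median centring and the deposited table. On each array alone their direction is fixed by the rule that picked them. With all 4 spots required above background in both channels, 9430037G07Rik was left out. The share in the Tbx18 window was then 0.730% of 137 probes, against 39 of 25038 probes on the array. At 2-fold the share was 0% in the Rbpj window and 0.633% of 158 probes in the Tbx18 window. Pi4k2b, with log2 ratios of -1.07 and -0.98, fell just short of 2-fold on replicate 2. No share over all probes at 2-fold is given here, so these have no background to be set against. Within 2 Mb of Rbpj the share at 1.5-fold was 10.5%, with a median log2 ratio of -0.027. The median in the Rbpj window ran from -0.037 to 0.0013 with 1 array left out at a time. With median centring the shares of like sign were 32.9% (Rbpj window) and 24.7% (Tbx18 window), and the Tbx18 median was -0.0011. Around Tbx18 the share of like sign was 47.6% within 5 Mb and 52.2% within 2 Mb, with medians of -0.0027 and 0.032. The count past an adjusted limma p of 0.05 in the Tbx18 window was 2 with the processed signals and 2 with the intensity trend and robust moderation, against 0. With the processed signals the array held 108 probes at least 1.5-fold to the same side and 264 to opposite sides, and with the values the authors deposited 108 and 246, against 43 and 163; with median centring it held 51 and 445. The cause was not tested. Of 110 named probes, 17 moved by more than their SD over the arrays with the processed signals, 16 with the deposited table and 5 with median centring. Probes near background limit what was seen: 11 of the 228 had a genotype measured on 1 array only. With 2 arrays, dye, sex and replicate change together.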
